A study of Zea mays with 12 samples.

Results

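The genes esr1 (GRMZM2G046086), esr2 (GRMZM2G315601) and esr3 (GRMZM2G140302) are 3 of the 108342 gene models counted in maize (Zea mays) kernels and endosperm, and were picked by identifier. They are named after the embryo-surrounding region, the zone of endosperm that lines the cavity around the young embryo. All 3 were found in the files, and all 3 passed the filter on low counts that left 46342 models for testing. The gene table at hand is that of the assembly Zm-B73-REFERENCE-NAM-5.0, and whether the authors counted on it is not stated. In it they lie next to each other on the same chromosome, with 1 pseudogene and no other protein-coding gene among them.

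The libraries come from reciprocal crosses of the inbred lines B73 and Mo17. BxM is B73 as mother with Mo17 as father, and MxB is Mo17 as mother with B73 as father. RNA was sequenced from unpollinated kernels (0 days after pollination, DAP), from kernels of 3 and 5 DAP, and from endosperm of 7, 10 and 15 DAP, with 1 library for each cross and age, or 12 libraries in all. Unpollinated kernels have no father, so at 0 DAP BxM names kernels of B73 and MxB kernels of Mo17. The labels speak of replicate plant material without saying how it was combined, so each library is a single value here. Endosperm carries more genome copies from the mother than from the father, so B73 alleles outnumber Mo17 alleles in BxM endosperm and the reverse holds in MxB endosperm.

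Esr genes encode small secreted proteins of the CLE family, a name formed from CLAVATA3 and embryo-surrounding region. CLE proteins are cut to short peptides that act as signals between cells through receptor kinases. In maize, esr transcripts are known as markers of the endosperm around the embryo early in seed growth. The copies are close in sequence, reads from one copy can be counted for another, and how such reads were assigned is not given in the sources used here, so the values of single genes are less certain than their sum.

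Total counts ran from 35401314 in BxM at 15 DAP to 70930121 in MxB at 10 DAP. Levels are given as CPM, the count scaled to the library total with edgeR's TMM factors. The floor for a gene with a count of 0, taken as 3 counts, ran from 0.0304 CPM in MxB at 0 DAP to 0.143 CPM in BxM at 15 DAP. Intervals given below are exact 95% intervals and, like this floor, cover counting error only. In the MxB kernels of 0 and 3 DAP some listed endosperm genes were present at trace counts and nearly absent from the BxM kernels of the same ages, while others went the other way. The transfer layer gene bap2 had 6 counts in BxM and 178 in MxB at 0 DAP, and 8 in BxM and 317 in MxB at 3 DAP. The aleurone gene al9 (GRMZM2G091054) had 6 counts in BxM and 165 in MxB at 0 DAP, and 28 in BxM and 313 in MxB at 3 DAP. The zein gene fl2 went the other way at 0 DAP, with 167 counts in BxM and 2 in MxB. So did the starchy endosperm genes gz50, with 90 in BxM and 2 in MxB, and wx1, with 171 in BxM and 57 in MxB. The whole list of 9 transfer layer genes summed to 25.8 CPM in BxM, with 2 genes at 0, and 40.1 CPM in MxB, with none at 0, at 0 DAP. At 3 DAP it summed to 286 CPM in BxM and 264 CPM in MxB. The whole list of 7 aleurone genes, al9 among them, was higher in BxM at both ages. It summed to 328 CPM in BxM and 261 CPM in MxB at 0 DAP, and to 335 CPM in BxM and 273 CPM in MxB at 3 DAP. Whether these traces bear on the esr counts below was not tested.

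The 3 esr genes were near absent before pollination, had 965 to 2606 counts at 5 DAP, stood highest in 7 DAP endosperm, and were near absent again at 15 DAP, in both crosses. In BxM, esr1 had 1, 0, 2374, 32969, 687 and 0 counts at 0, 3, 5, 7, 10 and 15 DAP, or 0.0112, 0, 30.1, 499.5, 14.1 and 0 CPM. In MxB, esr1 had 11, 37, 2606, 13850, 2000 and 8 counts at the same ages, or 0.112, 0.454, 34.4, 208, 32.8 and 0.290 CPM. The mean of both crosses was highest at 7 DAP, and the values of 5 and 10 DAP overlapped.

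For esr2 the counts in BxM were 0, 6, 2215, 75992, 2072 and 0, or 0, 0.0951, 28.1, 1151, 42.6 and 0 CPM. In MxB esr2 had 18, 63, 2221, 33022, 5348 and 19 counts, or 0.183, 0.774, 29.4, 495, 87.8 and 0.690 CPM. Here 10 DAP endosperm lay above 5 DAP kernels in both crosses, with no overlap.

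For esr3 the counts in BxM were 0, 0, 965, 37657, 681 and 8, or 0, 0, 12.2, 571, 14.0 and 0.383 CPM. In MxB esr3 had 8, 48, 1509, 19286, 1618 and 3 counts, or 0.0811, 0.590, 19.9, 289, 26.6 and 0.109 CPM. As for esr1, the 5 and 10 DAP values of esr3 overlapped. The values of 0, 3 and 15 DAP rest on at most 63 counts each and overlapped for every gene, except esr3 at 15 against 0 DAP, where MxB had 3 and 8 counts. At 7 DAP the 3 genes together held 0.213% of all counts in BxM and 0.0954% in MxB. In such bulk samples fewer cells of a type and less RNA per cell cannot be told apart.

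**Figure D1:**
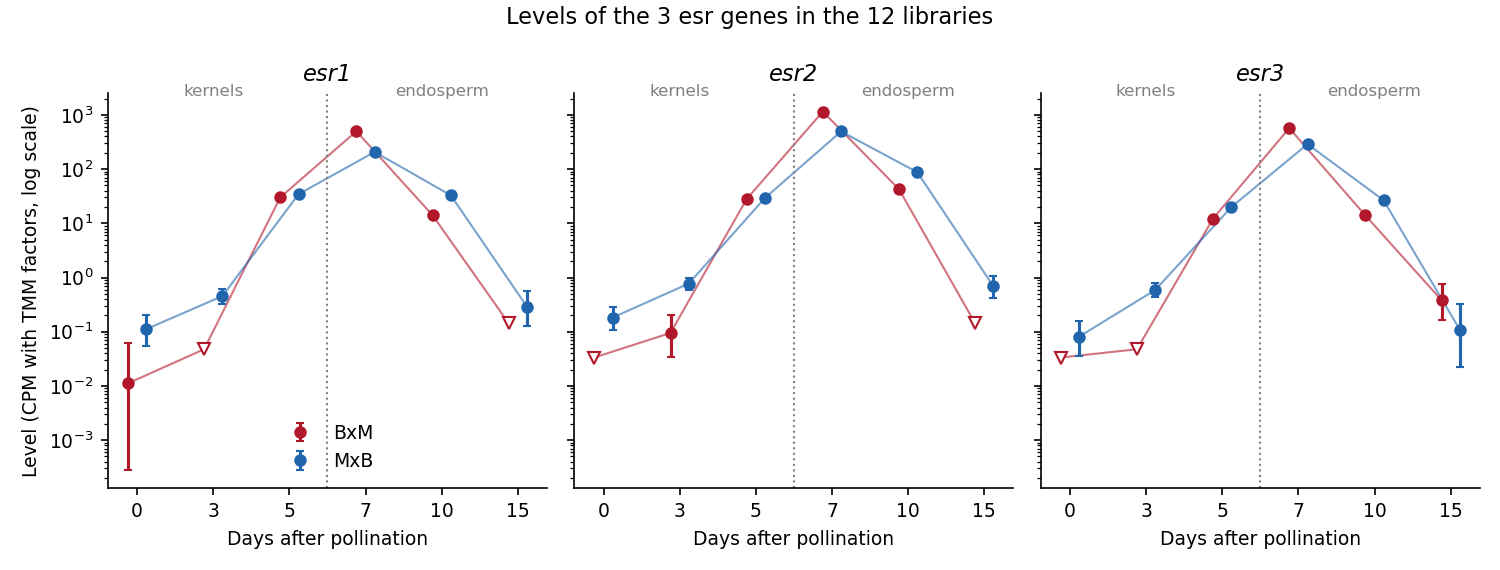
Levels of esr1, esr2 and esr3 (CPM with TMM factors, log axis) against days after pollination in BxM (red) and MxB (blue), with 1 library per point and exact 95% counting intervals; open triangles mark a count of 0, drawn at the floor of 3 counts. All 3 genes stand highest at 7 DAP, with BxM above MxB there and below it at 10 DAP.

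Between 0 and 3 DAP no esr gene changed beyond the threshold. At 3 DAP BxM kernels had 0, 6 and 0 counts of esr1, esr2 and esr3, against 1, 0 and 0 at 0 DAP. MxB kernels had 37, 63 and 48 counts at 3 DAP, against 11, 18 and 8 at 0 DAP, which is 4.07-fold higher for esr1 (interval 2.03 to 8.85), 4.24-fold for esr2 (interval 2.48 to 7.61) and 7.27-fold for esr3 (interval 3.41 to 17.8). These MxB ratios lie beyond counting error, with no replicate. The MxB counts were small beside those of MxB endosperm at 7 DAP: at 0 DAP they stood at 0.0537%, 0.0368% and 0.0280% of the 7 DAP level, and at 3 DAP at 0.219%, 0.156% and 0.204%. Other endosperm genes were spread widely on this scale in MxB kernels at 0 DAP. The transfer layer genes betl1, betl3, bap2, betl4 and meg1 stood at 0.0446% to 0.135% of their MxB levels of 7 DAP and al9 at 0.0693%. Higher were ebe2 at 7.30%, mn1 at 10.6% and ebe1 at 55.2%, and the model given as mrp1 was higher at 0 DAP than at 7 DAP. That model (GRMZM2G113203) had its highest counts before pollination, and whether it is the transfer layer gene of this name was not checked. It stays in the counts and medians of the transfer layer list. In BxM kernels at 0 DAP ebe2 stood at 7.25%, ebe1 at 36.4% and mn1 at 0.718% of their BxM levels of 7 DAP, and the model given as mrp1 was again higher than at 7 DAP. There betl1 and betl3 were at 0, bap2, meg1 and al9 at 0.000984% to 0.00231%, and betl4 at 0.0338%. With edgeR's quasi-likelihood test on all 12 libraries (age and cross as terms), 0 of 3 members passed an adjusted p of 0.05, 0 had an unadjusted p under 0.05, and DESeq2 called 0. In this comparison edgeR called 0.531% of all models higher and 0.0173% lower, and DESeq2 called 7.79% in either direction. The log2 changes were 1.78 for esr1 (SE 1.32), 2.19 for esr2 (SE 1.24) and 2.71 for esr3 (SE 1.41), with adjusted p from 0.414 to 0.586. Without the MxB library of 3 DAP the estimates for esr1 and esr3 were -4.75 and -4.33, resting on a BxM library with 0 counts of both.

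At 5 DAP the esr transcripts were present in quantity in both crosses. For esr1, 5 DAP kernels had 2374 counts in BxM and 2606 in MxB, against 0 in BxM and 37 in MxB at 3 DAP, which is at least 634-fold higher in BxM and 75.8-fold higher in MxB (interval 54.8 to 108). For esr2 the ratio of the libraries was 296 in BxM (interval 136 to 806, on 6 counts at 3 DAP) and 37.9 in MxB (interval 29.5 to 49.5). For esr3 it was at least 258 in BxM and 33.8 in MxB (interval 25.4 to 46.1). The counts of the 2 ages did not overlap for any of the 3 genes.

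These differences did not pass the test across all models, which weighs how unequally the 2 crosses behave and not the spread between plants. The log2 changes were 7.38 for esr1 (SE 1.25, edgeR adjusted p = 0.149), 6.36 for esr2 (SE 1.23, adjusted p = 0.187) and 5.89 for esr3 (SE 1.20, adjusted p = 0.198), so 0 of 3 passed. All 3 had an unadjusted p under 0.05 in edgeR, as did 4623 of the 46342 models tested. After adjustment edgeR called 0.0129% of all models higher and 0% lower. DESeq2 called all 3 higher, and 3.44% of all models in either direction. Over all models the median log2 change was 0.02. Ordered from the highest log2 change down, esr1, esr2 and esr3 stood at ranks 37, 115 and 184 of the 46342 models tested. Without the MxB library of 3 DAP, where the trace counts lie, the log2 changes of esr1 and esr3 were 13.78 and 12.86. Those fits stand against a single BxM library with no counts of either gene.

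From 5 DAP kernels to 7 DAP endosperm all 3 esr genes rose, where 10% of all models were called higher and 14.8% lower. In endosperm at 7 DAP esr2 stood at 1151 CPM in BxM and 495 CPM in MxB, against 28.1 CPM in BxM and 29.4 CPM in MxB in kernels at 5 DAP. Its log2 change was 5.04 (SE 1.12, edgeR adjusted p = 0.0113). The changes were 4.93 for esr3 (SE 1.11, adjusted p = 0.0120) and 3.66 for esr1 (SE 1.01, adjusted p = 0.0291). Within BxM the 7 DAP level was 16.6-fold that of 5 DAP for esr1, 41.0-fold for esr2 and 46.6-fold for esr3. Within MxB it was 6.03-fold, 16.9-fold and 14.5-fold for the same genes. The step was larger in BxM for all 3 genes, a difference that could not be tested with 1 library per cross and age.

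The call was lost on leaving out any of 3 of the 4 libraries compared. Without BxM at 5 DAP the log2 changes of esr1, esr2 and esr3 were 4.31, 5.89 and 4.94, leaving out MxB at 5 DAP 3.29, 4.57 and 4.93, and leaving out BxM at 7 DAP 1.66, 3.05 and 3.56. None of these passed, with adjusted p from 0.0529 to 0.386. DESeq2 called esr2 and esr3 but not esr1 (3.84, adjusted p = 0.0545), and a fit with no cross term did not call esr1 either (3.45, adjusted p = 0.0635). Of all models DESeq2 called 34.2% at this step, in either direction. The tissue changes at this step as well as the age. Summed over 5 listed ovule MADS-box genes, markers of maternal tissue, 7 DAP endosperm held 20.4 CPM in BxM and 20.8 CPM in MxB, against 1614 and 1446 CPM in BxM and MxB kernels at 5 DAP, and the 4 members tested all fell. The part that removal of maternal tissue has in the esr change was not tested.

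**Figure D2:**
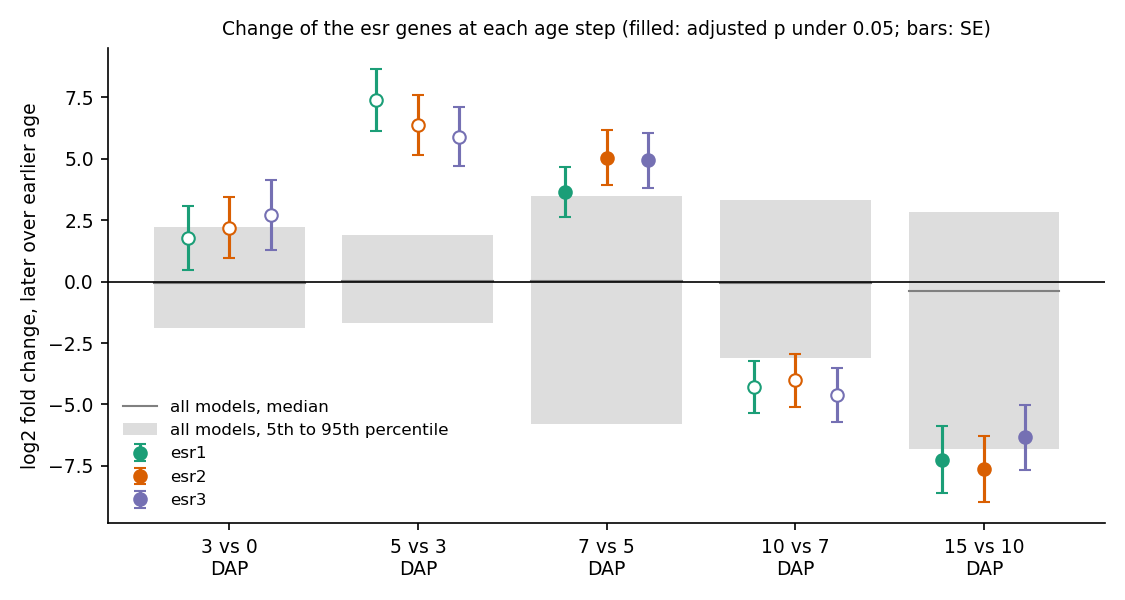
Log2 fold change (later over earlier age, y axis) of esr1, esr2 and esr3 at each of the 5 age steps, with SE bars; filled symbols passed an adjusted p of 0.05 in edgeR. Grey boxes run from the 5th to the 95th percentile of all 46342 models tested, with the median as a line. All 3 esr genes lie above the box at 5 against 3 and 7 against 5 DAP and below it at 10 against 7 DAP. At 3 against 0 DAP only esr3 lies above the box, and at 15 against 10 DAP only esr1 and esr2 lie below it.

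In 10 DAP endosperm the esr genes were far below 7 DAP in both crosses, yet the difference missed the threshold in the fit of all 12 libraries. For esr1, 10 DAP endosperm had 14.1 CPM in BxM and 32.8 CPM in MxB, against 499.5 CPM in BxM and 208 CPM in MxB at 7 DAP. In BxM the 10 DAP level of esr1 was 35.4-fold lower, that of esr2 27.0-fold and that of esr3 40.7-fold. In MxB the 10 DAP level was 6.33-fold lower for esr1, 5.64-fold for esr2 and 10.9-fold for esr3. The values of the 2 ages did not overlap for any of the 3 genes.

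The log2 changes from 7 to 10 DAP were -4.27 for esr1 (SE 1.06, edgeR adjusted p = 0.0645), -4.03 for esr2 (SE 1.08, adjusted p = 0.0810) and -4.63 for esr3 (SE 1.10, adjusted p = 0.0558). That is 0 of 3 passed, where edgeR called 2.83% of all models higher and 0.962% lower. All 3 had an unadjusted p under 0.05 in edgeR, as did 8485 of the 46342 models tested. DESeq2 called 2 of the 3, and 12.8% of all models in either direction. Fitted on the 6 endosperm libraries alone, all 3 passed, with changes of -3.99, -3.79 and -4.33 and adjusted p of 0.0135, 0.0236 and 0.00419 for esr1, esr2 and esr3. That fit called 8.5% of all models in either direction. Without BxM at 7 DAP the changes in the fit of all ages were -2.41, -2.15 and -3.28, and none passed. This leaves 1 library at 7 DAP, and edgeR called fewer of all models there than in the main fit. Other groups moved between the same libraries. The 8 listed embryo markers summed to 450 CPM in BxM and 245 CPM in MxB at 10 DAP. At 7 DAP the same sum was 54.4 CPM in BxM and 93.1 CPM in MxB. The gene ole1 made up 16085 of the 21899 BxM counts and 10001 of the 14946 MxB counts of this list at 10 DAP. Gene by gene, the log2 changes from 7 to 10 DAP ran from -3.93 (lec1) to 6.50 (glb2, with 0 counts at 7 DAP). Their median was 2.24, and edgeR called 1 of the 8 genes higher and 0 lower. The 9 listed genes of starchy endosperm summed to 5699 CPM in BxM and 4475 CPM in MxB at 10 DAP, against 78.8 and 477 CPM in BxM and MxB at 7 DAP. The ovule MADS-box genes summed to 180 CPM in BxM and 304 CPM in MxB at 10 DAP, against 20.4 CPM in BxM and 20.8 CPM in MxB at 7 DAP. The part of these changes in the esr values was not tested.

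By 15 DAP all 3 esr genes had fallen to a few counts or none, where edgeR called 14% of all models lower and 3.73% higher. Endosperm at 15 DAP had 0, 0 and 8 counts of esr1, esr2 and esr3 in BxM, against 687, 2072 and 681 at 10 DAP, which is at least 98.5-fold lower for esr1, at least 297-fold lower for esr2 and 36.6-fold lower for esr3 (interval 18.5 to 85.1). In MxB it had 8, 19 and 3 counts, against 2000, 5348 and 1618 at 10 DAP, which is 113-fold, 127-fold and 244-fold lower (interval 83.4 to 1185 for esr3, on 3 counts). The log2 changes were -7.25 for esr1 (SE 1.35, edgeR adjusted p = 0.00767), -7.62 for esr2 (SE 1.34, adjusted p = 0.00594) and -6.34 for esr3 (SE 1.33, adjusted p = 0.0123), set beside a median of -0.37 over all models.

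Without the BxM library of 15 DAP the changes of esr1 (-6.62, adjusted p = 0.0588) and esr3 (-7.93, adjusted p = 0.0508) missed the threshold, and without MxB at 15 DAP that of esr3 did (-5.18, adjusted p = 0.101). Against BxM at 15 DAP alone, where esr1 and esr2 are at 0, the fits gave -13.14 and -14.63, which depend on the prior count and are no bound. The starchy endosperm list summed to 114325 CPM in BxM and 77553 CPM in MxB at 15 DAP, and the part of this in the esr values was not tested. In the 15 DAP libraries 20 models with a mean of at least 5000 counts at 10 DAP were listed at 0 in both crosses. No esr gene is among those models, and the fits changed no esr call when they were left out, a check added after the data were seen.

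In both crosses esr1 made up less, and esr2 more, of the summed esr count at 7 DAP than at 5 DAP. The share of esr1 in the summed count of the 3 genes was 42.7% in BxM and 41.1% in MxB at 5 DAP, 22.5% and 20.9% at 7 DAP, and 20.0% and 22.3% at 10 DAP. The share of esr2 was 39.9% in BxM and 35.1% in MxB at 5 DAP, 51.8% and 49.9% at 7 DAP, and 60.2% and 59.6% at 10 DAP. That of esr3 was 17.4% in BxM and 23.8% in MxB at 5 DAP, 25.7% and 29.2% at 7 DAP, and 19.8% and 18.0% at 10 DAP. Between 5 and 7 DAP the esr1 shares did not overlap and the esr2 shares did not overlap between any of these ages. These are shares of counts with no correction for length, so a change with age can be read, but not which gene is more abundant. At 0 and 3 DAP the MxB traces (37 and 148 summed counts) were 29.7% esr1 at 0 DAP (interval 15.9% to 47.0%), with an interval of 18.3% to 32.8% at 3 DAP. The interval at 3 DAP did not reach the 41.1% of MxB at 5 DAP, while that at 0 DAP did. Both esr1 intervals took in the 20.9% and 22.3% of MxB at 7 and 10 DAP. At 3 DAP the MxB interval was 34.49% to 50.95% for esr2 and 24.98% to 40.61% for esr3. Each took in the MxB share of 7 DAP but not that of 10 DAP. The esr2 interval also took in the 35.1% of MxB at 5 DAP, while the esr3 interval lay above the 23.8%. At 0 DAP the wider MxB intervals of esr2 (31.9% to 65.6%) and esr3 (9.83% to 38.2%) took in the MxB shares of 5, 7 and 10 DAP. Where the traces come from was not tested. No test over samples was made on shares.

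**Figure D3:**
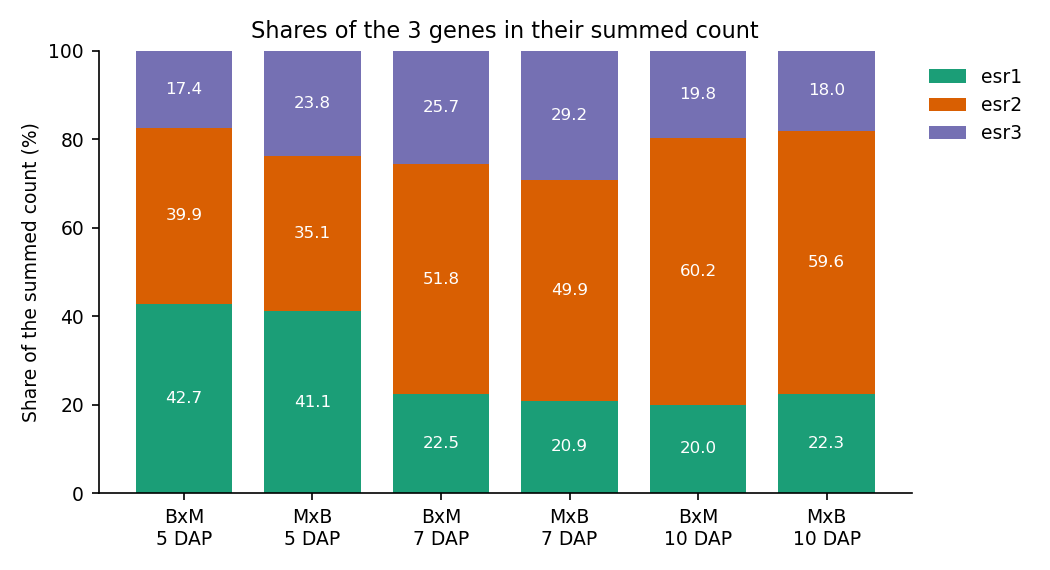
Stacked bars of the share of esr1, esr2 and esr3 in their summed count (percent, y axis) in the BxM and MxB libraries of 5, 7 and 10 DAP, from 3440 summed counts in BxM at 10 DAP to 146618 in BxM at 7 DAP. The esr1 share is over 40% at 5 DAP in both crosses and 22.5% or less at 7 and 10 DAP.

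The 2 crosses differed in opposite directions at 7 and 10 DAP. At 7 DAP the level in BxM over that in MxB was 2.40 for esr1, 2.32 for esr2 and 1.97 for esr3. At 10 DAP the same ratio was 0.430 for esr1, 0.485 for esr2 and 0.527 for esr3, so MxB was higher. At 5 DAP the ratio lay between 0.614 (esr3, interval 0.566 to 0.666) and 0.957 (esr2, interval 0.902 to 1.02). Each is a ratio of 2 libraries with no replicate.

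With the ages held apart over the 6 endosperm libraries, no difference between the crosses was called for any esr gene. The log2 difference of BxM over MxB was -0.20 for esr1 (SE 0.594, edgeR adjusted p = 0.939), -0.36 for esr2 (SE 0.649, adjusted p = 0.890) and 0.23 for esr3 (SE 0.429, adjusted p = 0.893). Here 0 of 3 passed, 0 had an unadjusted p under 0.05 and DESeq2 called 0, while edgeR called 0.0103% of all models higher and 0.00258% lower in BxM. Of all models DESeq2 called 2.86% in either direction. The estimate turned with the libraries left in. Without BxM at 7 DAP it was -1.34 for esr1 (adjusted p = 0.0195), -1.32 for esr2 (adjusted p = 0.0202) and -0.51 for esr3, and leaving out MxB at 7 DAP gave -1.32 (adjusted p = 0.0132), -1.32 (adjusted p = 0.0196) and -0.53. Without BxM at 10 DAP it was 0.70 for esr1, 0.21 for esr2 and 1.14 for esr3, and leaving out MxB at 10 DAP gave 0.66, 0.17 and 1.10. Without BxM or MxB at 15 DAP it was 0.04 for esr1, 0.10 for esr2 and 0.04 for esr3. Over all models edgeR called 1455 of 41546 without BxM at 7 DAP and 1468 of 41708 without MxB at 7 DAP. With all 6 libraries it called 5 of 38816.

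In kernels of 3 and 5 DAP the log2 difference of BxM over MxB was -1.69 for esr1 (SE 0.981, edgeR adjusted p = 0.464), -1.29 for esr2 (SE 0.721, adjusted p = 0.429) and -2.30 for esr3 (SE 1.06, adjusted p = 0.284). None of the 3 passed, none had an unadjusted p under 0.05, and DESeq2 called 1, esr3 (-2.62, adjusted p = 0.0451). Of all models edgeR called 4.03% higher and 3.64% lower in BxM, and DESeq2 called 10.3% in either direction. Summed over the 3 genes, BxM had 6 counts and MxB 148 at 3 DAP, and BxM had 5554 and MxB 6336 at 5 DAP. Without a filter on low counts edgeR called esr3 as well (-2.31, adjusted p = 0.0268), and 8.64% of all models in either direction.

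Genes of other endosperm zones differed between the same libraries. Of the 8 transfer layer genes with at least 10 counts in both crosses at 7 DAP, 7 were higher in BxM, with a median log2 of BxM over MxB of 1.54, beside 50.0% of all models and a median of -0.00. At 10 DAP 2 of 9 were higher in BxM, with a median of -0.50, beside 48.1% of all models and a median of -0.03. Transfer layer cells line the base of the endosperm and take up nutrients from the mother. The starchy endosperm list ran the other way, with 1 of 9 higher in BxM at 7 DAP (median -2.93) and 8 of 9 at 10 DAP (median 0.71). Of 4 other listed genes of the embryo-surrounding region, esr6 (1.49 at 7 DAP, -0.54 at 10 DAP) and ae1 (1.34, -1.15) turned as the esr genes did. Opaque11 did not (-0.07, 0.51), and ae3 was lower in BxM at both ages (-0.36, and -4.07 on 2 BxM counts). Among 30461 models with at least 10 counts in all 4 libraries, 23.2% were higher in BxM at 7 DAP and lower at 10 DAP, as the 3 esr genes were.

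**Figure D4:**
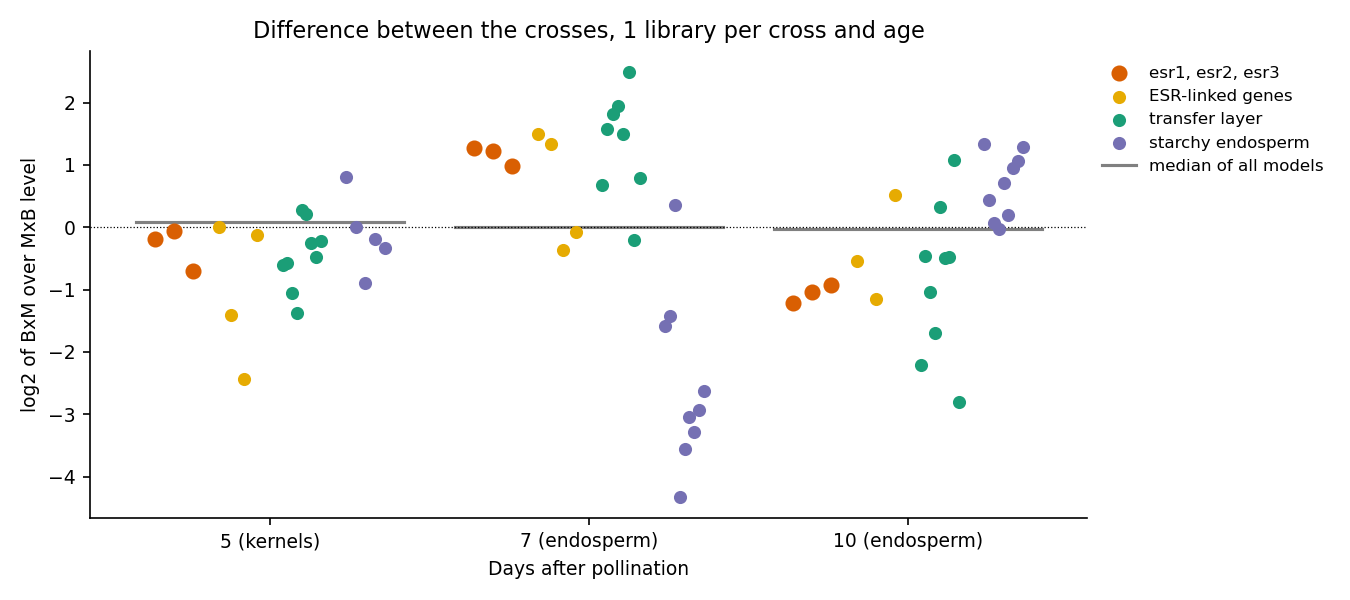
Log2 of the BxM over the MxB level (y axis) at 5, 7 and 10 DAP for the esr genes and for listed genes with at least 10 counts in both libraries, 1 point per gene; grey lines mark the median of all models. The esr genes lie above 0 at 7 DAP and below 0 at 10 DAP, and starchy endosperm genes lie mostly on the opposite side.

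Of 4 other listed genes known from this region, 3 rose from 5 to 7 DAP (10% of all models did), 2 fell from 7 to 10 DAP (0.962% of all models) and 2 fell from 10 to 15 DAP (14% of all models). The gene esr6 (GRMZM2G048353), which encodes a defensin-like protein and not a CLE protein, had 17546 counts in BxM and 6322 in MxB at 7 DAP, against 685 in BxM and 659 in MxB at 5 DAP, and rose by a log2 of 4.33 (SE 0.692, edgeR adjusted p = 0.00369). It fell by 3.42 from 7 to 10 DAP (SE 0.671, adjusted p = 0.0368) and had 0 counts in both crosses at 15 DAP, against 638 in BxM and 1163 in MxB at 10 DAP (adjusted p = 0.00147). The gene ae1 (GRMZM2G039942), first described in androgenic embryos, rose by 4.80 from 5 to 7 DAP (SE 0.995, adjusted p = 0.0106). It too had 0 counts in both crosses at 15 DAP, against 128 in BxM and 356 in MxB at 10 DAP (edgeR adjusted p = 0.00567). For ae3 the log2 change from 5 to 7 DAP was 1.12 (SE 0.871, adjusted p = 0.399), and it fell by 5.96 from 7 to 10 DAP (SE 1.08, adjusted p = 0.0235).

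Opaque11 (GRMZM2G147685), a bHLH regulator related to Arabidopsis ZHOUPI, rose already from 0 to 3 DAP, with 34 counts in BxM and 66 in MxB at 3 DAP, against 2 in BxM and 10 in MxB at 0 DAP (log2 change 3.39, SE 0.499, edgeR adjusted p = 0.0318). It rose by 5.12 from 5 to 7 DAP (SE 0.439, adjusted p = 0.000282). It stood at 383 CPM in BxM and 269 CPM in MxB at 10 DAP, against 108 CPM in BxM and 113 CPM in MxB at 7 DAP (log2 change 1.57, SE 0.376, adjusted p = 0.0574). At 15 DAP it was still at 267 CPM in BxM and 289 CPM in MxB (log2 change from 10 DAP -0.25, SE 0.368, adjusted p = 0.715). Of 9 listed transfer layer genes 5 rose and 1 fell from 5 to 7 DAP, beside 10% and 14.8% of all models, and 7 fell from 10 to 15 DAP, beside 14% of all models. The 5 that rose were betl1, bap2, betl3, betl4 and meg1, with log2 changes of 4.94 to 7.08, and the 1 that fell was the model the reference table gives as mrp1 (-4.38). From 7 to 10 DAP the transfer layer list had a median log2 change of -2.29 and the 3 esr genes -4.27, beside -0.05 over all models, a difference that was not tested.

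By likeness of pattern, measured as Pearson's r of log2(CPM + 1) over the 12 libraries with the mean of the 3 esr genes, the closest of 41719 models were GRMZM2G137369 (r = 0.997), GRMZM2G141574 (0.997), GRMZM2G355761 (0.996), GRMZM2G355742 (0.996), AC203847.3_FG004 (0.995), GRMZM2G323925 (0.995), esr6 (0.995), GRMZM2G496821 (0.993), AC203847.3_FG009 (0.992) and GRMZM2G080263 (0.992). The esr genes correlated among themselves at 0.989 to 0.991. All points share library depth and the same 12 samples, so these values are descriptions. GRMZM2G137369 had 27421 counts in BxM and 12719 in MxB at 7 DAP and 540 in BxM and 1124 in MxB at 10 DAP. GRMZM2G355761 and GRMZM2G355742 had nearly equal counts, as did AC203847.3_FG004 with GRMZM2G323925 and AC203847.3_FG009 with GRMZM2G080263, so the members of a pair may share reads. The reference table gives these models no symbol beyond a locus number, apart from esr6. All 10 were higher in BxM at 7 DAP and lower in BxM at 10 DAP, values that the measure of likeness also uses. Of the 9 listed transfer layer genes, betl3, bap2, betl1 and betl4 stood at ranks 30, 42, 73 and 92, with r of 0.974, 0.967, 0.954 and 0.946. Lower came meg1 (r = 0.93, rank 129), ebe2 (0.855), mn1 (0.68), ebe1 (0.482) and the model given as mrp1 (-0.601). Of the other listed genes of the embryo-surrounding region, ae1 stood at rank 152 (0.924), ae3 at rank 1170 (0.802) and Opaque11 at rank 8424 (0.438). With a pseudocount of 0.1 CPM 4 of the 10 closest were the same models, and over the endosperm libraries alone 3 were.

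**Figure D5:**
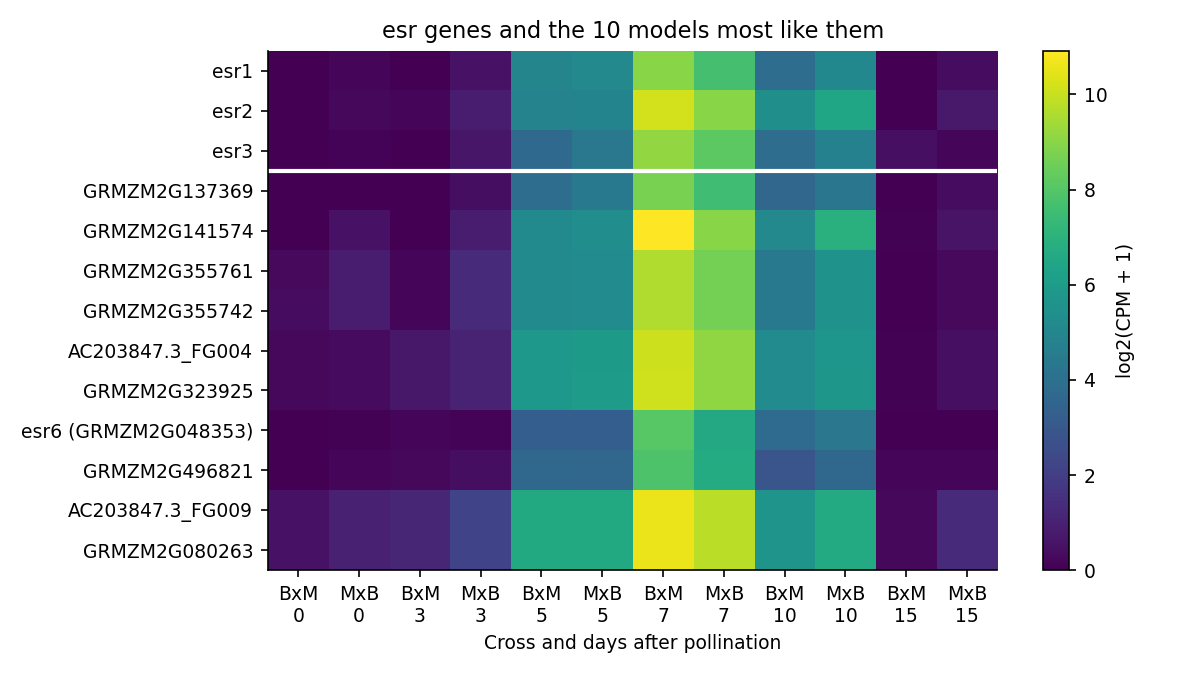
Log2(CPM + 1) of esr1, esr2, esr3 and the 10 models most like them (rows) in the 12 libraries (columns, by age with BxM left of MxB). Each row is brightest in the 7 DAP columns, where BxM is brighter than MxB, and darkest at 0, 3 and 15 DAP.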

How the data were processed

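Reads were aligned and counted by the authors. Bowtie and bedtools were used, per the submitters' processing notes, with no version stated. Nothing on genome build, gene annotation or read assignment is given in the sources used here. Per the file headers, the columns of both crosses carry the word B73, with no word on its meaning. The deposited values are raw counts per gene model in 1 column for each of the 12 libraries. The deposited normalised signal (library-scaled reads with edgeR factors, per the authors' note) is a constant multiple of the counts within a library and was only checked against them.

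Models with low counts were removed by filterByExpr, and counts were scaled by TMM and tested by quasi-likelihood (glmQLFit, glmQLFTest; edgeR 4.0.16, R 4.3.3), with Benjamini-Hochberg adjustment over all models and a threshold of 0.05. For the age steps, age and cross were fitted on the 12 libraries (residual df 5). The cross comparisons used 6 endosperm libraries (residual df 2) or 4 kernel libraries, those of 3 and 5 DAP (residual df 1). SEs were derived from the F statistic, and levels are CPM with the TMM factors of the fit. The fits were tested on simulated data. DESeq2 1.42.0 was an alternative, and so were other scaling factors, no filter, no cross term, fits within a tissue and leaving out each library.

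Members and lists were chosen with earlier results of these data known. Listed genes were matched by symbol in the table of Zm-B73-REFERENCE-NAM-5.0, where the CLE family could not be filled beyond the members. The named genes are the members, listed genes and the 10 models with the highest r to the esr mean among tested models with at least 100 counts in all.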

Additional observations from a re-analysis of the deposited data

Results flagged for a closer look

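The difference between the crosses turned between 7 and 10 DAP for all 3 esr genes, and this turn was not tested, since each cross and age has 1 library. The log2 of BxM over MxB was 1.27 at 7 DAP and -1.22 at 10 DAP for esr1. For esr2 it was 1.22 at 7 DAP and -1.04 at 10 DAP, and for esr3 0.98 at 7 DAP and -0.92 at 10 DAP. The scaling on plain library totals gives the same directions, with BxM over MxB ratios of 2.40, 2.32 and 1.97 at 7 DAP and of 0.410, 0.463 and 0.503 at 10 DAP for esr1, esr2 and esr3.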

How the results depend on the processing

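Of 324 alternatives for the esr values, 276 kept both the direction and the side of the threshold, 14 lost the call, 22 gained one and 12 turned the direction, all 12 of them on leaving out a library. The cause of these changes was not tested. The alternatives are not separate checks, since leaving out either library of an age gave near equal estimates of the endosperm difference between crosses. With DESeq2 the 5 against 3 DAP changes passed (8.26, 6.82 and 6.27 for esr1, esr2 and esr3), as did 10 against 7 DAP for esr1 (-4.63) and esr3 (-4.77) and the kernel difference of esr3 (-2.62), while 7 against 5 DAP was lost for esr1 (3.84). Without a filter 10 against 7 DAP passed for esr1 (-4.29) and esr3 (-4.64), as did the kernel difference of esr3 (-2.31). With no cross term esr1 lost 7 against 5 DAP (3.45). The endosperm libraries alone gave -3.99, -3.79 and -4.33 for 10 against 7 DAP, all past the threshold.

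Leaving out each library in turn gave, for esr1, esr2 and esr3, ranges of -4.75 to 3.56, 0.47 to 7.16 and -4.33 to 6.77 at 3 against 0 DAP. At 5 against 3 DAP they were 6.40 to 13.78, 5.57 to 7.92 and 4.90 to 12.86, and at 7 against 5 DAP 1.66 to 4.60, 3.05 to 5.95 and 3.56 to 5.78. At 10 against 7 DAP they were -5.34 to -2.41, -5.04 to -2.15 and -5.50 to -3.28, and at 15 against 10 DAP -13.14 to -6.62, -14.63 to -6.88 and -7.93 to -5.18. For BxM over MxB in endosperm they were -1.34 to 0.70, -1.32 to 0.21 and -0.53 to 1.14. In kernels no library could be left out, since no residual degree of freedom remains.

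Counts over all models moved more. DESeq2 called 3612 models at 3 against 0 DAP, 1592 at 5 against 3 DAP, 5932 at 10 against 7 DAP and 1110 between crosses in endosperm, where edgeR called 254, 6, 1757 and 5. Without a filter edgeR called 19 models at 5 against 3 DAP, 849 between crosses in endosperm and 5074 in kernels, where the filtered fit called 6, 5 and 3139. In the endosperm comparison of crosses 2 models were called with either other set of factors, and 19 without the models listed at 0. On the endosperm libraries alone 3301 models were called at 10 against 7 DAP, and on kernel libraries alone 0 at 5 against 3 DAP. With no cross term 149 were called at 3 against 0 DAP and 1140 at 10 against 7 DAP. Upper-quartile factors put the median of all models at 0.20 in place of 0 at 7 against 5 DAP, and at -0.08 in place of -0.37 at 15 against 10 DAP.

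No paired analysis was possible because each cross and age has a single library, and the replicate number only names it. Cross is a term of the age fits, and its removal is given above. At 0 DAP this term stands for the maternal line alone. Shares per coding length were not run, since no length of the files' gene models was used. At 0, 3 and 15 DAP the esr counts are at most 63 a library, which leaves wide counting intervals.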
